A study of Mus musculus with 12 samples.

Results

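Invariant natural killer T (iNKT) cells of the mouse thymus carry accessible chromatin that is unevenly spread along the genome, and the 100 kb stretches in which it is packed most densely are described here. Each chromosome was cut into fixed 100 kb bins from its start (mm10), and a bin was taken as dense when the midpoints of 12 or more accessible regions lay in it. By this rule, 1394 of 26350 bins (5.29%) were dense, and they held 23112 of the 63309 regions measured (36.5%). The rule used the position of regions only and neither their signal nor the groups. Accessibility was measured by ATAC-seq, in which the Tn5 transposase inserts adapters into open DNA, in iNKT1, iNKT2 and iNKT17 cells of untreated C57BL/6 mice and of Hivep3-/- mice on the C57BL/6 background, all aged 8 to 9 weeks, with 2 libraries for each of the 6 groups. Cells were sorted from pooled thymi as CD122+ ICOS- (iNKT1), CD122- ICOS+ Izumo1r+ CD138- (iNKT2) or CD122- ICOS+ Izumo1r- CD138+ (iNKT17), combined for the transposition and sorted again by ICOS and CD138, so that the genes Il2rb, Icos, Izumo1r and Sdc1 encode the sort markers. The study asked whether loss of the zinc finger protein HIVEP3, a nuclear factor that binds κB-like DNA sequences, alters the chromatin of these subsets. It used mice of both sexes, the labels do not give the sex of each pool, and Xist signal differed between the genotypes (below). The labels number the libraries by mouse although thymi were pooled, so p-values measure only the spread between 2 libraries per group, and in bulk cells fewer cells of a type and less signal per cell cannot be told apart.

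iNKT cells recognize lipids presented by CD1d and leave selection with the properties of memory cells, under control of the transcription factor PLZF, encoded by Zbtb16. iNKT1 cells depend on T-bet (Tbx21) and produce IFN-γ, iNKT2 cells are high in PLZF and produce IL-4, and iNKT17 cells produce IL-17. Genes that define a cell's identity often lie among many closely spaced enhancers, whereas housekeeping genes are usually served by an open promoter alone, and a crowded stretch of DNA can hold either kind.

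The sequences below are the central 300 bases of 9 regions in dense bins on which the comparisons turn, in GRCm38 (mm10) and on the + strand. They include 3 intronic Cd247 sites and 1 intronic Akap6 site that differed by genotype, 1 site near Lmo4 that was lower without Hivep3, and sites that marked iNKT1 cells (Tbx21, Klrd1), separated iNKT1 and iNKT2 from iNKT17 cells (Zfp683) or marked iNKT17 cells (Gm9936). Capitals mark matches, on either strand, to short motifs.
Cd247, chr1:165796887-165797186: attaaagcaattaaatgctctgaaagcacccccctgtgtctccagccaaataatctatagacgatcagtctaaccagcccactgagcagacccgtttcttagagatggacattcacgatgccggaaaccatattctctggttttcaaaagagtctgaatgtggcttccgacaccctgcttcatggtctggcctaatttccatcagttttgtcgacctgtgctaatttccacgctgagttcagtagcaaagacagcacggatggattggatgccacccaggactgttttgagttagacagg
Cd247, chr1:165820742-165821041: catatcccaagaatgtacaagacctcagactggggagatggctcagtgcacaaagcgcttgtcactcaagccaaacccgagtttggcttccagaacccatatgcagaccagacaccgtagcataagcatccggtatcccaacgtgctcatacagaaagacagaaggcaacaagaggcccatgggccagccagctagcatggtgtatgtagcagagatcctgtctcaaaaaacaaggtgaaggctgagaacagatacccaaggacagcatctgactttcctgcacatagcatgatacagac
Cd247, chr1:165824221-165824520: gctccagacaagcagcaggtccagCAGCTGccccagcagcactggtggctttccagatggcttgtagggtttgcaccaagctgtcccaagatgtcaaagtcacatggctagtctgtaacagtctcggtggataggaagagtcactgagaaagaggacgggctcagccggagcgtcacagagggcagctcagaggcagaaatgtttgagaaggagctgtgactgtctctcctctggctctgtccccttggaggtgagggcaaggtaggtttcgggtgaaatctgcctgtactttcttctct
Akap6, chr12:52882693-52882992: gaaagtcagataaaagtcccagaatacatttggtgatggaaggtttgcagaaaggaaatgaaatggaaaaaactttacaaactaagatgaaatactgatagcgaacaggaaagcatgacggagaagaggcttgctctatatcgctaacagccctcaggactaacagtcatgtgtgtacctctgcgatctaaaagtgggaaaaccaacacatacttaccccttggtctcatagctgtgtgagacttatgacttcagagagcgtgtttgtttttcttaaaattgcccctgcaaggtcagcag
Lmo4, chr3:144257286-144257585: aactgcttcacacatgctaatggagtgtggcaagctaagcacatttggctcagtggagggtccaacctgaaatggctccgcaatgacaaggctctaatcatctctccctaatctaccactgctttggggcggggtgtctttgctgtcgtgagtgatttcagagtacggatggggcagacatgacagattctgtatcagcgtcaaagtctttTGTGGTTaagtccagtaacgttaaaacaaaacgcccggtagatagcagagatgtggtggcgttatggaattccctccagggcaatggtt
Tbx21, chr11:97109021-97109320: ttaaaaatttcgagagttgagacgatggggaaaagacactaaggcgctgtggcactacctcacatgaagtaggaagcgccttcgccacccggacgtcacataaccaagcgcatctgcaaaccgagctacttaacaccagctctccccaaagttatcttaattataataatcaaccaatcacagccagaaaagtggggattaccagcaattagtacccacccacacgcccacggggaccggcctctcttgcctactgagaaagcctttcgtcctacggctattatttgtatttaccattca
Klrd1, chr6:129594995-129595294: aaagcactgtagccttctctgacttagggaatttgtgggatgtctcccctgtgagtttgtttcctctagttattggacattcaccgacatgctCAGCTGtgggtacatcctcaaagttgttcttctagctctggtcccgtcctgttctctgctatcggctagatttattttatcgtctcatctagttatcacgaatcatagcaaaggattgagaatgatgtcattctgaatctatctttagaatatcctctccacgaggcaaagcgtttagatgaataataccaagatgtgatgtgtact
Zfp683, chr4:134047704-134048003: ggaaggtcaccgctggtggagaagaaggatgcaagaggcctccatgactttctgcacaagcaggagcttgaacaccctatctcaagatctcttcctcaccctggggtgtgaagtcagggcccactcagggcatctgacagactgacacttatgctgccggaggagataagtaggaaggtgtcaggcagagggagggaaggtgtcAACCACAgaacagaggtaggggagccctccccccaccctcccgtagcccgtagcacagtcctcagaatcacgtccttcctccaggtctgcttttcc
Gm9936, chr5:114877471-114877770: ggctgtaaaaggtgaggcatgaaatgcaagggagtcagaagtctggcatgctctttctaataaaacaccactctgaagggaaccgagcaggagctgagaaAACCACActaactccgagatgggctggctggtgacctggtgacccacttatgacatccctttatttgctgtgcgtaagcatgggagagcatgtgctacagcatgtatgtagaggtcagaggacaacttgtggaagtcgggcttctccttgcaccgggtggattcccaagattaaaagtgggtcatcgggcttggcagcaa
The motifs were CAGGAAG (ETS factors), TGTGGTT (Runt factors), AGGTGTGA (T-box factors), CTTTGAA (TCF and LEF), TGANTCA (bZIP factors), GGGANTTTC (NF-κB), CCCTCTNG (CTCF) and CAGCTG (E proteins). The capitals in the Lmo4, Zfp683 and Gm9936 sites are Runt matches, and those in the third Cd247 site and in the Klrd1 site are E protein matches. Across the central 300 bases of all regions, 22.6% held the ETS motif, 18.6% the E protein motif, 13.7% the Runt motif and 1.58% the NF-κB motif. In dense bins these shares were 23.8%, 19.6%, 13.5% and 1.74%. A match describes the letters only, and no binding was measured.

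Dense bins held relatively more sites away from promoters than the rest of the accessible genome. Within them 30.5% of regions lay within 1 kb of an annotated start site, against 38.4% in the other bins, whereas introns held 41.5% against 33.6%. The share of promoters fell with crowding, from 33.7% in the 718 bins with 12 to 15 regions to 19.5% in the 33 bins with 30 to 42 regions. Promoter regions had a similar median level in dense bins (4.99, on the log2 scale of normalized insertions per kilobase) and in other bins (4.96). Regions away from promoters were stronger in dense bins, with a median level of 3.65 against 2.99. In dense bins, 70.3% of regions had a mean of at least 5 insertions per kilobase in all 6 groups, against 62.0% elsewhere. Signal in dense bins made up 38.0% to 40.7% of the summed signal of each library, with 40.4% to 40.7% in the 4 iNKT1 libraries and 38.0% to 39.3% in the other 8.

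The bins with 12 regions and those with 11 did not form separate classes, since 207 bins held 12 and 329 held 11, with median summed levels of 341 and 313. The median dense bin held 15 regions. A protein-coding start site lay in 1186 of the dense bins, 152 lay over a gene body only and 56 lay outside genes, and 82 dense bins held no promoter region. Dense bins also joined into runs, with 663 standing alone, 196 runs of 2 and 95 runs of 3 or more. The longest runs spanned 600 kb. One of them, on chromosome 11, held 97 regions over the type 2 cytokine genes Il4, Il13 and Il5 and over Irf1, and another, on chromosome 17, held 120 regions over the cytokine genes Tnf, Lta and Ltb and the MHC gene H2-D1. Chromosome 11 had the most dense bins (164, 13.4% of its bins) and the X chromosome had 10 (0.584%).

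The bin with the most regions, 42, lay within Zbtb16, and all 42 were intronic. The next held 39 regions beside and within Bcl11b, a zinc finger factor needed for T cell commitment. Bins with 38 regions each lay over Rara (the retinoic acid receptor alpha) with Cdc6, over Myh9 (non-muscle myosin heavy chain) and over Trim14. A bin with 37 regions lay over Fnbp1 and Gpr107. Bins with 36 regions lay over the chemokine receptor genes Cx3cr1 and Ccr8, within Prex1 and within Prkch (protein kinase C eta). At Zbtb16 the summed level, meaning the sum of normalized insertions per kilobase over the regions of a bin, was 839 and 783 in C57BL/6 iNKT1, 1442 and 1366 in iNKT2 and 1145 and 1137 in iNKT17 libraries. The Zbtb16 bin was highest in iNKT2 cells, without overlap, with a log2 difference of -0.79 ± 0.05 (SE) between iNKT1 and iNKT2 (limma, adjusted p = 2.57e-08). Its difference between iNKT2 and iNKT17, 0.30 ± 0.05, was below the 1.5-fold required of a call. In the Bcl11b bin the order was different, with 630 and 597 in iNKT2 against 855 and 812 in iNKT1 and 900 and 899 in iNKT17 libraries, and no difference reached 1.5-fold. Rara with Cdc6 (1462 to 1713) and Myh9 (992 to 1364) also varied by less than 1.5-fold between C57BL/6 subsets.

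**Figure D1:**
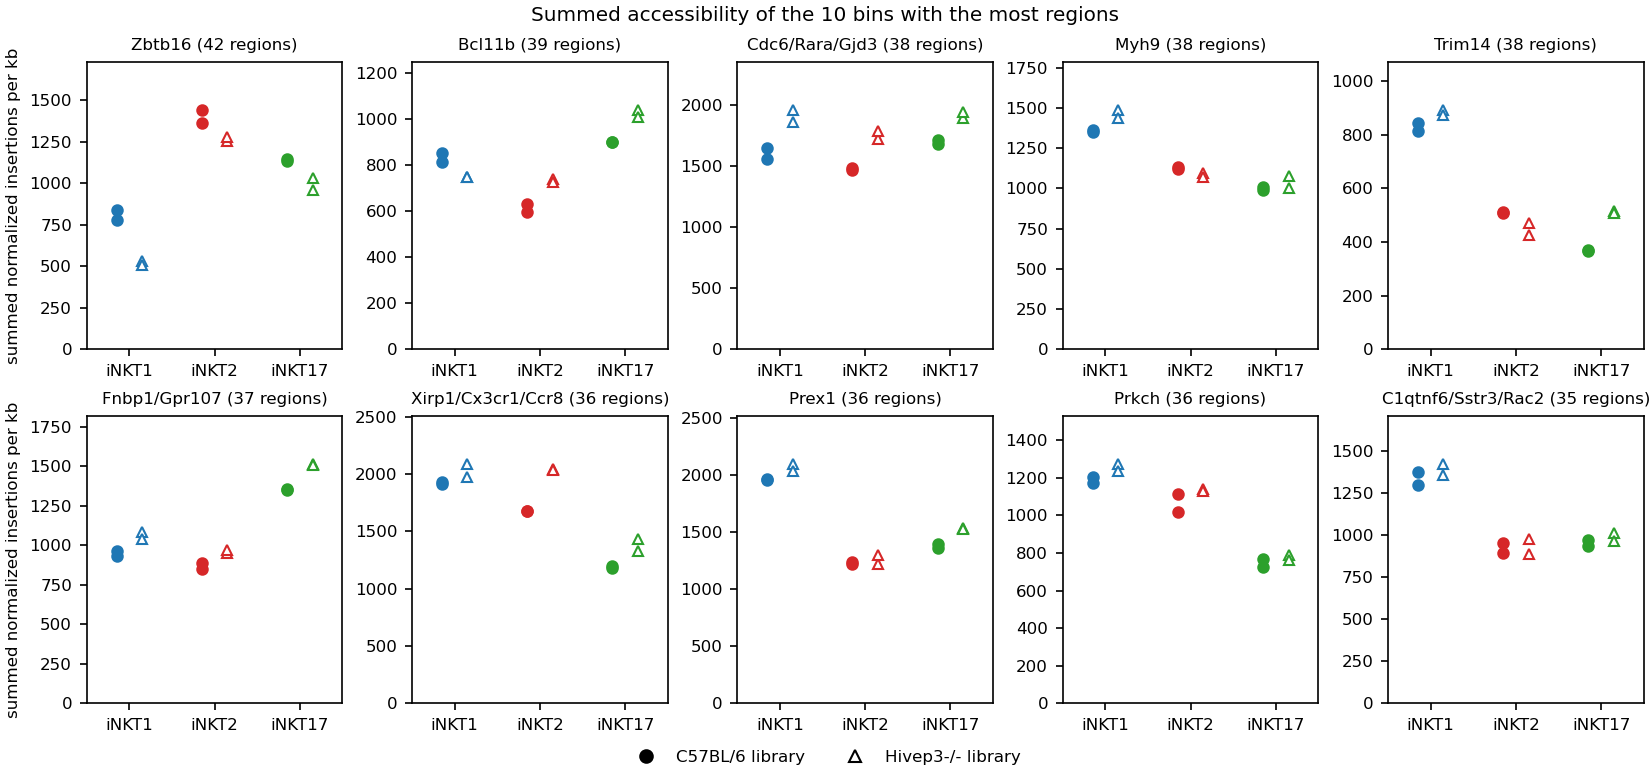
Summed accessibility (normalized insertions per kilobase) of the fullest dense bins in each of the 12 libraries, with points for libraries, by subset and genotype. The Zbtb16 points of C57BL/6 iNKT1 lie at 839 and 783 and those of Hivep3-/- iNKT1 at 531 and 508.

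Sums over the marker genes of each subset followed the labels, although not every marker did so alone. The summed promoter level of 5 iNKT1 markers was 799 to 823 in C57BL/6 iNKT1 libraries, 313 to 334 in iNKT2 and 275 to 282 in iNKT17. For iNKT17 markers it was 269 to 293 in iNKT17 against 25.0 or less in iNKT1 and iNKT2 libraries, and for iNKT2 markers 430 to 450 in iNKT2 against 336 to 353 in iNKT1. Of the iNKT2 markers, Gata3 overlapped between iNKT2 (39.3 and 35.9) and iNKT17 (38.4 and 35.0), and Icos overlapped between all C57BL/6 subsets (40.9 to 50.3). Zbtb16 was at 163 and 155 in iNKT2 and 153 and 151 in iNKT17. Izumo1r, a sort marker gene, was at 151 and 155 in iNKT2 against 95.7 and 95.4 in iNKT1. Of the markers of B cells, myeloid cells and epithelium, 1 each (Ebf1, Spi1 and Epcam) had a region, and of those of double positive thymocytes 0. Over the 12 libraries Ebf1 was at 6.48 to 11.4, Spi1 at 16.9 to 40.8 and Epcam at 5.24 to 21.2, beside 27.6 to 46.5 for the iNKT2 marker Gata3. Whether other cells contributed was not tested.

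Genes known from T cells were often in dense bins. Of all 21728 protein-coding genes, 3665 (16.9%) had their start site in one. The regions were found in these same iNKT libraries, and the 16.9% also counts genes without an accessible promoter in them. The share among genes with an accessible promoter was not computed, and the part of this in the shares below was not tested. Among genes of iNKT1 and cytotoxic cells this was 19 of 28 (67.9%), including Tbx21, Ifng, Xcl1, Il2rb, Ccl5 and Nkg7. It was 15 of 19 (78.9%) for iNKT2 genes, including Zbtb16, Gata3, Il4 and Icos, and 12 of 22 (54.5%) for iNKT17 genes, including Il23r, Il1r1 and Blk. T lineage transcription factors had 28 of 42 (66.7%) and the list of TCR complex and signalling genes had 20 of 25 (80.0%), with Cd3d, Cd3e, Cd3g, Cd247, Lck and Zap70 among them. Receptor and survival genes had 14 of 29 (48.3%). Genes named by the study for a change with Hivep3 loss had 17 of 23 (73.9%), a list the study drew mostly from its single-cell RNA data, with Cd247, Drosha and Ccr9 also shown from these libraries. Several familiar genes were not in dense bins, such as Eomes, Prf1, Il17a, Il17f, Maf, Bcl2 and Hivep3 itself.

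In C57BL/6 cells, the subsets differed at many regions in dense bins, and iNKT1 and iNKT17 cells differed at the most. A region was called at an adjusted p below 0.1 and a change of at least 3-fold. Between iNKT1 and iNKT2, of 21742 members tested, 1662 (7.64%) were higher in iNKT1, beside 7.33% of all regions tested, and 1211 (5.57%) were lower, beside 8.71%. Between iNKT1 and iNKT17, of 22155 tested, 2394 (10.8%) were higher in iNKT1, beside 9.72%, and 1816 (8.2%) were lower, beside 10.8%. Between iNKT2 and iNKT17, of 21598 tested, 1451 (6.72%) were higher in iNKT2, beside 7.72%, and 1648 (7.63%) were lower, beside 8.49%. Members lower in iNKT1 cells fell short of the background in both comparisons, and members higher in iNKT1 were slightly above it. At 219 of the 4210 members called between iNKT1 and iNKT17 a library was at its lowest value, so those changes are of uncertain size.

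Taken as whole bins, 171 of the 1394 dense bins differed by at least 1.5-fold when iNKT1 was set against iNKT2. Against iNKT17, 295 differed from iNKT1 and 206 from iNKT2. The background for these counts, here and below, was the 7306 bins with 3 or more regions. Most of these hold fewer regions than a dense bin, and a sum of many regions can move less than a sum of few. The part of this in the shares was not tested. Higher in iNKT1 than in iNKT2 were 109 dense bins (7.82%, beside 8.77% of all bins tested) and lower were 62 (4.45%, beside 12.7%). Higher in iNKT1 than in iNKT17 were 193 (13.8%, beside 12.3%) and lower were 102 (7.32%, beside 15.1%). Higher in iNKT2 than in iNKT17 were 106 (7.6%, beside 10.8%) and lower were 100 (7.17%, beside 10.7%). As shares of dense bins, the 3 totals were 12.3%, 21.2% and 14.8%. The shares lower in iNKT1 than in either other subset were below the background by the widest margins.

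Bins over cytotoxic and NK receptor genes were highest in iNKT1 cells. The bin of Klrk1, Klrc1, Klrc2 and Klrc3, which encode activating and inhibitory NK receptors, had summed levels of 339 and 309 in iNKT1, 42.5 and 37.6 in iNKT2 and 114 and 105 in iNKT17 libraries. This was a log2 difference of 3.02 ± 0.11 from iNKT2 (adjusted p = 1.19e-09) and of 1.57 ± 0.11 from iNKT17 (adjusted p = 6.9e-08), and each of its 14 regions was called in at least one comparison of subsets. The neighbouring bin with Klrd1 and Klre1 was at 270 and 231 in iNKT1 against 38.6 to 51.3 in the other C57BL/6 libraries. In it, 12 of 16 regions were called higher in iNKT1 than in both other subsets. The site printed above next to Klrd1 had log2 levels of 3.71 and 3.89 in iNKT1 and of -4.05 to -3.02 in the other 4 C57BL/6 libraries, near their lowest values. The bin of the chemokine genes Ccl5, Ccl9 and Ccl6 was graded, at 382 and 374 in iNKT1, 196 and 206 in iNKT2 and 38.3 and 41.7 in iNKT17 libraries.

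The Ifng, Xcl1 and Tbx21 bins followed the order of the Ccl5 bin. The Ifng bin, which holds the gene of IFN-γ, was at 480 and 450 in iNKT1, 319 and 301 in iNKT2 and 168 and 154 in iNKT17 libraries, with a log2 difference of 1.53 ± 0.07 between iNKT1 and iNKT17 (adjusted p = 2.21e-09). Xcl1, a chemokine gene of cytotoxic cells, was at 697 and 718, then 316 and 298, then 153 and 134. The Tbx21 bin was at 1440 and 1463 in iNKT1, 939 and 875 in iNKT2 and 736 and 707 in iNKT17 libraries. Within the Tbx21 bin, one intronic site (printed above) went from 5.26 and 5.44 on the log2 scale in iNKT1 to -2.41 and -2.29 in iNKT17 cells. Of the 17 dense bins with start sites of the iNKT1 list, 11 were called higher in iNKT1 than in iNKT2 and 11 than in iNKT17. By limma 0 were called lower, although 2 in each comparison were lower at an unadjusted p under 0.05. The median log2 difference of these bins was 0.91 from iNKT2 and 0.90 from iNKT17, against -0.03 and -0.02 over all bins tested.

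Bins over iNKT17 genes showed wide contrasts. At Il1r1, which encodes the IL-1 receptor, all 24 regions were called in at least one comparison of subsets. Its summed level was 1087 and 1120 in iNKT17 against 74.2 and 73.4 in iNKT1 and 100 and 91.5 in iNKT2 libraries, a log2 difference of -3.90 ± 0.06 for iNKT1 against iNKT17 (adjusted p = 1.04e-12). Blk, a Src family kinase gene, was at 402 and 469 in iNKT17, 114 and 120 in iNKT2 and 41.6 and 44.7 in iNKT1 libraries. Pxdc1 (520 and 541 in iNKT17) and Fam50b (361 and 368) lie in adjacent bins, and Fam50b was at 4.57 or less in C57BL/6 iNKT1 and iNKT2 libraries, which is close to the lowest values. Of the 12 dense bins with start sites of iNKT17 genes, 6 were called higher in iNKT17 than in iNKT1 and 6 than in iNKT2. Their median log2 differences were -0.57 for iNKT1 against iNKT17 and -0.58 for iNKT2 against iNKT17, against -0.02 and 0.03 over all bins tested.

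A pair of neighbouring bins on chromosome 6 separated iNKT1 from iNKT17 cells in opposite directions. Il12rb2, which encodes a subunit of the IL-12 receptor, and Il23r, which encodes a subunit of the IL-23 receptor, have start sites 116 kb apart. The Il12rb2 bin was at 436 and 418 in iNKT1, 188 and 178 in iNKT2 and 27.9 and 23.0 in iNKT17 libraries. The Il23r bin was at 69.0 and 64.5 in iNKT1, 19.5 and 13.7 in iNKT2 and 288 and 286 in iNKT17 libraries. Between iNKT1 and iNKT17 the log2 differences were 4.08 ± 0.10 (adjusted p = 1.45e-11) at Il12rb2 and -2.11 ± 0.14 (adjusted p = 4.52e-08) at Il23r.

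**Figure D2:**
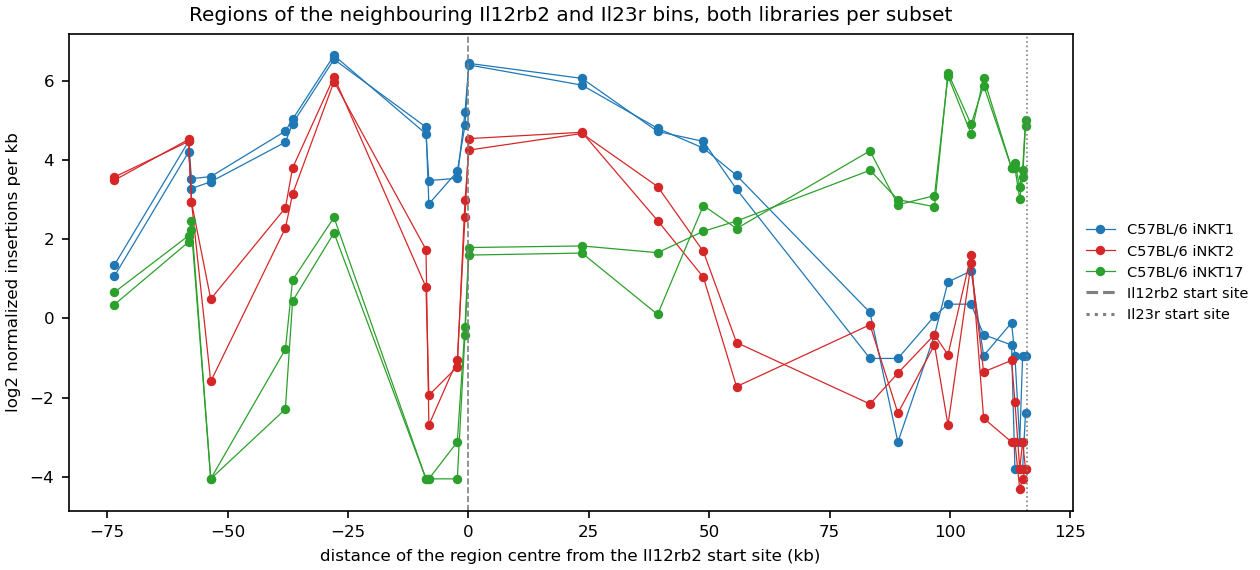
Normalized log2 accessibility of each region (vertical axis) by its distance from the Il12rb2 start site in kb (horizontal axis) in the C57BL/6 libraries of the 3 subsets. iNKT1 is high on the Il12rb2 side and iNKT17 on the Il23r side, whose bins sum to 436 and 418 in iNKT1 and to 288 and 286 in iNKT17.

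Fewer bins were highest in iNKT2 cells. Of the members, 470 (2.03%) were higher in iNKT2 than in both other subsets, against 3.35% of all regions, while 1065 (4.61%, against 4.59%) were specific to iNKT1 and 1134 (4.91%, against 6.05%) to iNKT17 in this sense. Tmod1, a tropomodulin gene, was the bin with the most, 10 of 12. Its summed level was 300 and 321 in iNKT2, 44.5 and 58.2 in iNKT1 and 35.5 and 38.5 in iNKT17 libraries. At Il4 and Il13 the levels of iNKT2 (1165 and 1132) and iNKT1 (994 and 1001) differed by less than 1.5-fold, and iNKT17 libraries were lower (412 and 424). Ccr7, a homing receptor gene, was at 789 and 719 in iNKT2 and 431 and 442 in iNKT1 libraries. Irf4, a factor of effector lymphocytes, was at 614 and 598 in iNKT2, 476 and 495 in iNKT17 and 262 and 286 in iNKT1 libraries. Il17rb, the receptor of IL-25, was at 365 and 340 in iNKT2, 288 and 263 in iNKT17 and 142 and 130 in iNKT1 libraries. Il4ra, the IL-4 receptor gene of the same list, was instead highest in iNKT1, at 837 and 833 against 447 to 544 in the other libraries.

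Bins of TCR signalling and cytokine receptor genes had their own orders. Cd5, a negative regulator of TCR signals, was at 978 and 1066 in iNKT1, 1051 and 1018 in iNKT2 and 478 and 505 in iNKT17 libraries. Cd2, an adhesion receptor gene, was graded, at 801 and 753, then 451 and 418, then 208 and 192. Rasgrp1, which links the TCR to Ras, was highest in iNKT17 (488 and 515) and lowest in iNKT2 (295 and 284). Il21r was at 617 and 613 in iNKT1, 361 and 356 in iNKT2 and 199 and 218 in iNKT17 libraries, and Ifngr1 at 979 and 874, then 343 and 334, then 560 and 540. Bins of Runx3 (751 to 987), Ikzf3 (476 to 651) and Nr4a1 (1097 to 1610) differed by less than 1.5-fold between subsets.

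**Figure D3:**
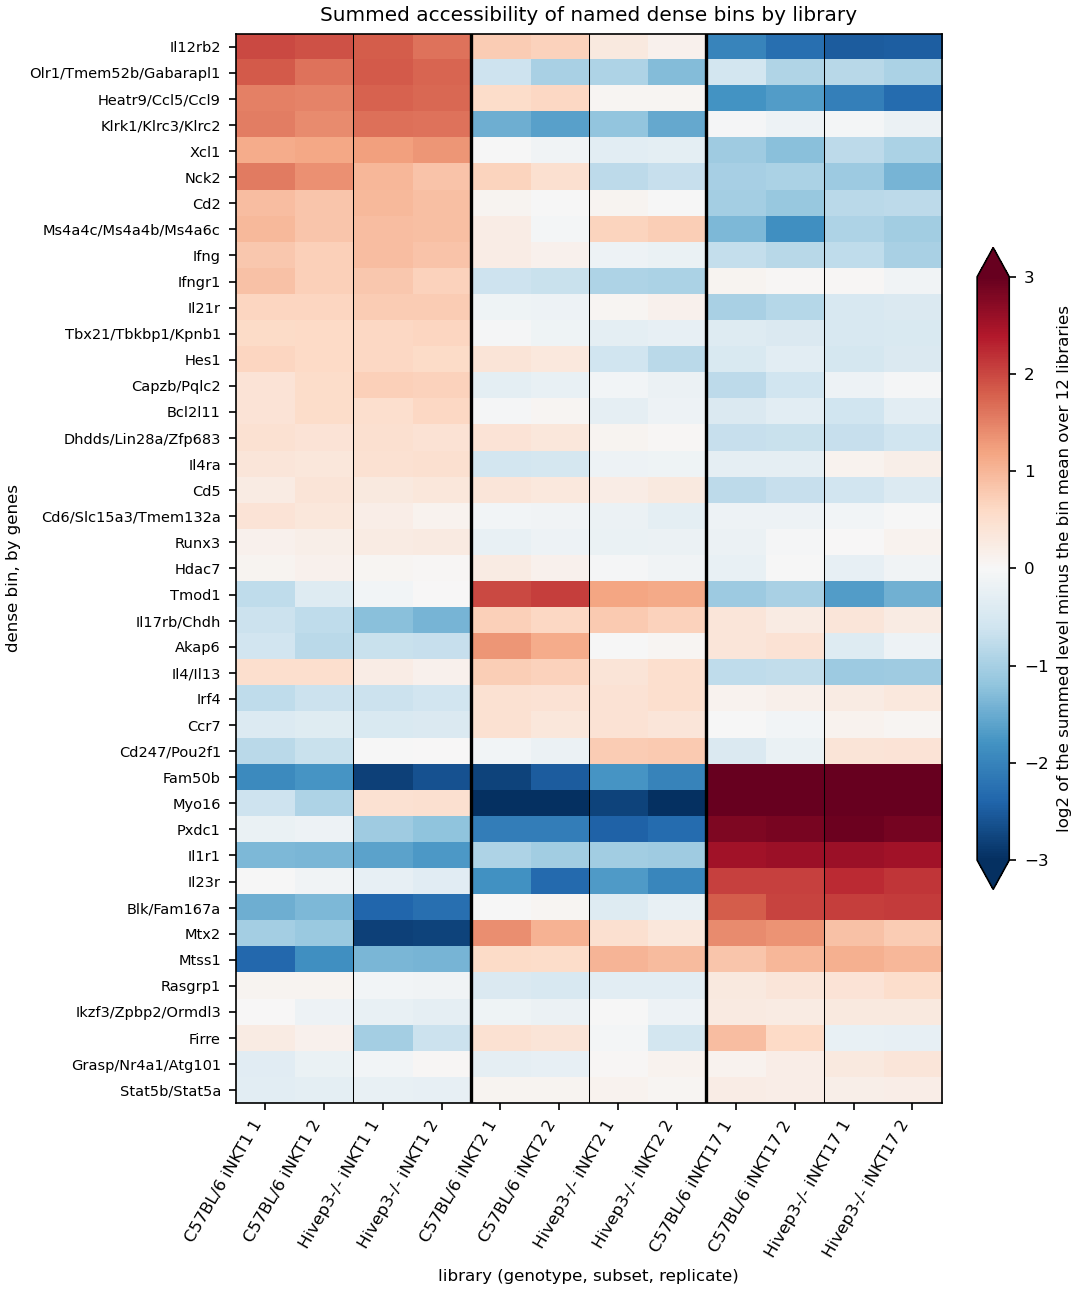
Heatmap of named dense bins (rows) in the 12 libraries (columns), colour giving the log2 summed level minus the mean of the bin over libraries. Il1r1, Blk and Il23r are high in iNKT17 and the Klr and Ccl5 bins in iNKT1 columns, and the row of Firre is low in the Hivep3-/- columns.

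Regions of one dense bin often moved in different directions. Among dense bins with 3 or more regions called between iNKT1 and iNKT17, 371 of 665 (55.8%) had all of them in one direction, against 79.2% of other bins with 3 or more. The values were 289 of 432 (66.9%) against 79.8% between iNKT1 and iNKT2, and 310 of 460 (67.4%) against 79.6% between iNKT2 and iNKT17. Dense bins hold more regions and had more called, up to 23 between iNKT1 and iNKT17 against 10 in other bins, and the part of this in the difference was not tested. In all, 6230 members (27.0%, against 29.2% of all regions) were called between any of the C57BL/6 subsets. Of the dense bins, 91 held no called region, and the largest of these were bins of Irf2bpl (28 regions), of Mast3 and Il12rb1 (27) and of a histone gene cluster (26). In 189 dense bins (13.6%), 50% or more of the regions were called. Shares of other bins are not given beside these counts of bins, which are not read as traits of dense bins.

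The differences between subsets were largely found in Hivep3-/- cells too. The comparisons within each genotype share no library. Between iNKT1 and iNKT2, 3495 of 21925 members tested in Hivep3-/- cells were called (15.9%, beside 17.3% of all regions tested). In both genotypes 2112 were called in the same direction, which is 73.5% of the C57BL/6 list and 60.4% of the Hivep3-/- list. Between iNKT1 and iNKT17, 4068 of 22191 were called (18.3%, beside 19.3% of all regions), with 3275 shared (77.8% and 80.5%). Between iNKT2 and iNKT17, 2890 of 21661 were called (13.3%, beside 15.6% of all regions), with 2188 shared (70.6% and 75.7%). Opposite calls numbered 2, 0 and 0. Of the members specific to iNKT2 in C57BL/6 cells, 53.6% were so in Hivep3-/- cells, against 79.2% for iNKT1 and 82.5% for iNKT17, and this contrast was not tested. The shared shares over all regions are not given, so none of these is read as a trait of dense bins.

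Loss of Hivep3 changed far fewer regions of the dense bins. The Hivep3 gene itself holds 20 regions, 0 of them in dense bins and 0 called by limma in any subset (5, 2 and 5 had an unadjusted p under 0.05 in iNKT1, iNKT2 and iNKT17), and its start site region was at 6.36 to 6.72 on the log2 scale in all 12 libraries, which says nothing about the deletion. In iNKT1 cells, of 20792 members tested, 110 (0.529%) were higher in Hivep3-/- (0.89% of all regions tested) and 46 (0.221%) were lower (0.264%). In iNKT2 cells, of 20531, 110 (0.536%) were higher (0.474%) and 190 (0.925%) were lower (1.2%). In iNKT17 cells, of 20331, 51 (0.251%) were higher (0.133%) and 13 (0.0639%) were lower (0.138%). These shares were below or near the background, apart from the higher regions in iNKT17 cells. Of 465 members called in any subset, 5 were called in all 3. In all, 1094 dense bins held none. The like counts over all regions and other bins are not given, so these are not read as traits of dense bins.

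Sums over whole bins gave 20, 23 and 5 dense bins changed by at least 1.5-fold in iNKT1, iNKT2 and iNKT17 cells, 1.43%, 1.65% and 0.359% of dense bins. In iNKT1 cells 5 were higher (0.359% of dense bins, beside 2.49% of all bins tested) and 15 lower (1.08%, beside 2.05%). In iNKT2 cells 7 were higher (0.502%, beside 2.01%) and 16 lower (1.15%, beside 3.3%). In iNKT17 cells 3 were higher (0.215%, beside 0.438%) and 2 lower (0.143%, beside 1.62%). Each of these shares was below the background, which is mostly of bins with fewer regions, and the part of this in the shortfall was not tested. Where summing was replaced by a mean of log2 values, the shares of dense bins were higher, at 3.01%, 4.88% and 1.36%. The share of all bins under that setting is not given, so the shortfall was not assessed there.

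Cd247, which encodes the ζ chain through which the TCR signals, had the largest cluster of changes and was higher in Hivep3-/- cells of every subset. The bin over the body of Cd247 and Pou2f1 holds 28 regions. Its summed level was 307 and 343 in C57BL/6 and 534 and 547 in Hivep3-/- iNKT1 libraries, 514 and 482 against 921 and 937 in iNKT2, and 402 and 472 against 709 and 721 in iNKT17. In each subset both Hivep3-/- libraries were above both C57BL/6 libraries, with log2 changes of 0.73 ± 0.07 (adjusted p = 3.44e-05), 0.90 ± 0.07 (adjusted p = 8.78e-06) and 0.71 ± 0.07 (adjusted p = 0.000221). In this bin 14 of 28 regions were called in some subset, all higher in Hivep3-/-, of which iNKT1 cells had 3, iNKT2 cells 11 and iNKT17 cells 9. At 15 of the 28, all 6 Hivep3-/- libraries were above all 6 C57BL/6 libraries. Over all dense bins this held for 112 members (0.485%, against 0.316% of all regions), and the reverse for 57 (0.247%, against 0.254%).

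The Cd247 regions that stood apart in all libraries lay in one stretch. In the 2 bins of Cd247, 16 of 49 regions did so, and they lay between 2.0 and 60.4 kb from the start site, where they were 16 of 24 regions. The site at 32.2 kb, the second printed above, was one of them, at 1.2 and -0.55 in C57BL/6 and at 4.46 in both Hivep3-/- iNKT2 libraries. The other 2 printed sites were called higher but overlapped between genotypes across subsets. The site at 8.36 kb (chr1:165796787-165797286, the first printed above) was at -2.39 to -0.92 on the log2 scale in C57BL/6 iNKT1 and iNKT2 libraries and at 1.44 to 3.05 in those of Hivep3-/-. Its change in iNKT2 cells, 3.5 ± 0.57 (adjusted p = 0.00226), was 2.70 and no longer called without Hivep3-/- iNKT2 replicate 2. The site at 35.7 kb, the third, was at 0.82 and -0.88 against 3.37 and 3.66 in iNKT17 libraries. The promoter-side bin with Rcsd1 and Creg1 had 1 region with all Hivep3-/- libraries above all C57BL/6 libraries.

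**Figure D4:**
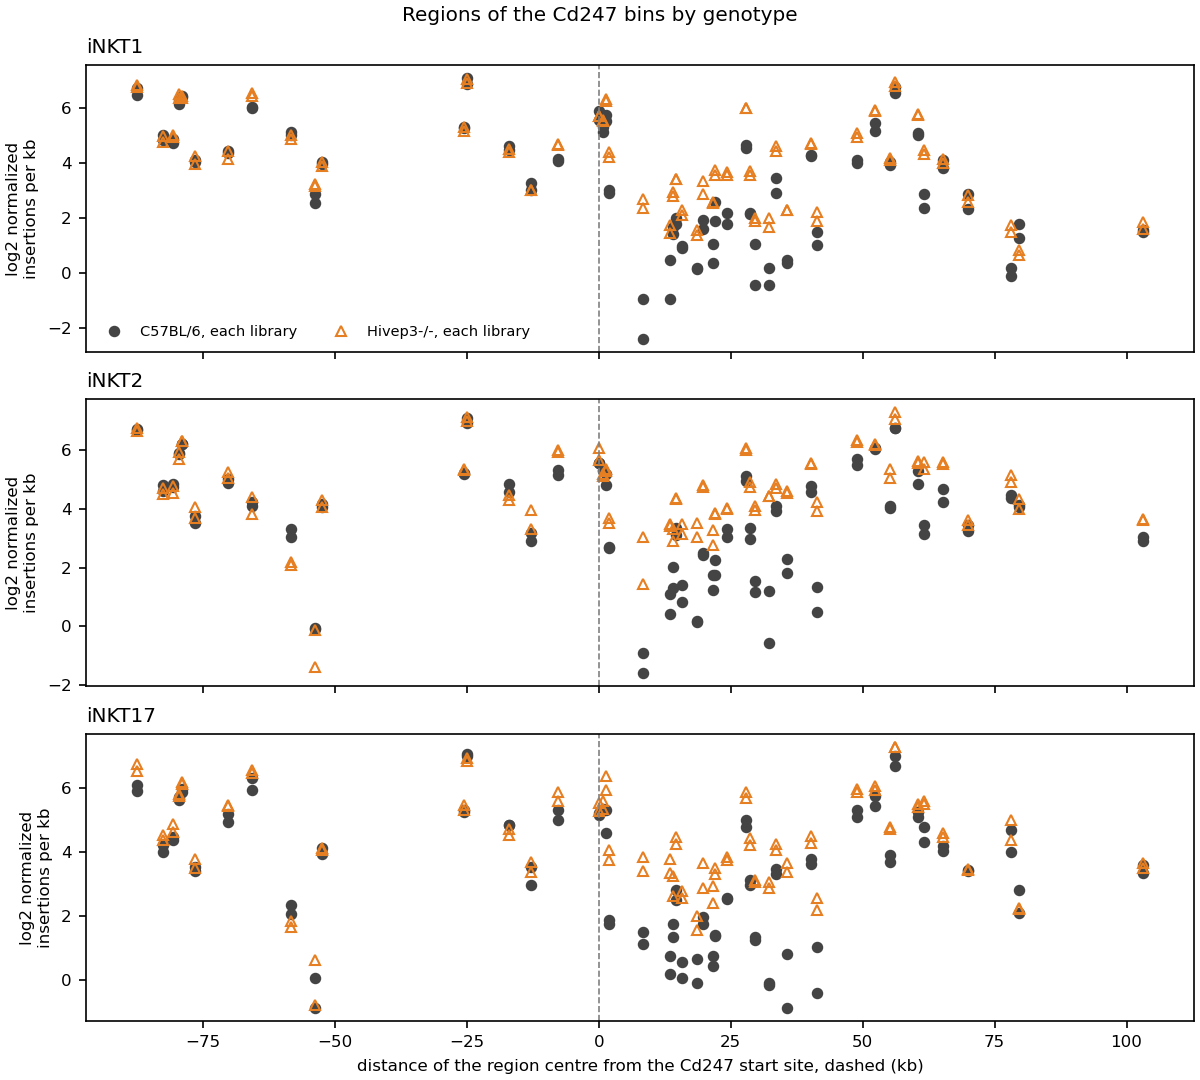
Normalized log2 accessibility of regions (vertical axis) by distance from the Cd247 start site in kb (horizontal axis), with one panel per subset and the libraries of both genotypes. The Hivep3-/- points lie above the C57BL/6 points over the stretch from 2.0 to 60.4 kb.

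In iNKT1 cells the bins that fell with loss of Hivep3 included those of the iNKT2 genes Zbtb16 and Il17rb, and those of Blk and Pxdc1, which were highest in iNKT17 cells. Blk was the only one called of the 12 dense bins with iNKT17 genes, whose median log2 change was -0.03, and 0 of its regions were called. Zbtb16 fell from 839 and 783 to 531 and 508, a log2 change of -0.64 ± 0.05 (adjusted p = 3.65e-06), with 4 of its regions called lower. In the same Zbtb16 bin iNKT2 changed by -0.14 ± 0.05 and iNKT17 by -0.19 ± 0.05, which are below 1.5-fold. Blk fell from 41.6 and 44.7 to 21.9 and 23.7 (-0.92 ± 0.09, adjusted p = 4.92e-05) and Il17rb from 142 and 130 to 93.7 and 85.2 (-0.61 ± 0.08, adjusted p = 0.000294). Pxdc1 fell from 65.1 and 67.5 to 35.5 and 32.2. A bin 274 kb from the nearest coding start site, Mtx2, fell the most, from 69.1 and 64.7 to 20.1 and 20.2 (-1.73 ± 0.10, adjusted p = 9.27e-07), and in iNKT2 cells from 365 and 288 to 195 and 177 (-0.80 ± 0.10). Mtss1 rose from 31.6 and 45.0 to 62.9 and 61.2, though its change was 0.46 and not called without C57BL/6 iNKT1 replicate 1. Beside these, the summed promoter level of the iNKT2 marker genes was 336 to 353 in C57BL/6 and 254 to 261 in Hivep3-/- iNKT1 libraries, and its part in the result was not tested. The site near Lmo4 (chr3:144257186-144257685, 52.2 kb from the start site) fell from 3.5 and 3.48 to -0.78 and -0.17 on the log2 scale (adjusted p = 8.35e-06).

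In iNKT2 cells more bins fell than rose. Nck2, an adaptor protein gene, fell from 126 and 111 to 46.5 and 49.1 (-1.31 ± 0.11, adjusted p = 1.86e-05), with 5 of its 14 regions called lower. Akap6, an anchoring protein gene, fell from 184 and 158 to 73.6 and 76.1 (-1.19 ± 0.11, adjusted p = 2.63e-05), with 7 of 13 lower. A bin 35.6 kb from Hes1, a Notch target gene, fell from 237 and 228 to 121 and 104 (-1.05 ± 0.08, adjusted p = 6.78e-06). Tmod1, the bin with the most iNKT2-specific regions, fell from 300 and 321 to 173 and 166 (-0.87 ± 0.12, adjusted p = 0.000461). The iNKT1-type loci Ifng and Xcl1 had 319 and 301 against 245 and 237, and 316 and 298 against 256 and 260, changes below 1.5-fold. Beside these, the summed promoter level of the iNKT1 marker genes, all 5 of which have a region and of which Il2rb is a sort marker gene, was 313 and 334 in C57BL/6 and 245 and 270 in Hivep3-/- iNKT2 libraries. Il2rb, the largest part of it (196 and 197 against 177 and 199), and Tbx21 (61.8 and 50.0 against 42.3 and 51.0) overlapped between genotypes. Ifng (30.6 and 25.8 against 6.07 and 7.21), Nkg7 (28.3 and 25.4 against 8.95 and 6.07) and Xcl1 (17.4 and 14.5 against 10.1 and 6.12) were lower without overlap. The sum of the iNKT2 marker genes was 430 to 450 and 356 to 386. Their part in the results was not tested. Ms4a4b and its neighbours, a family of membrane proteins, rose from 117 and 97.2 to 159 and 167 (0.61 ± 0.14, adjusted p = 0.00901).

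In iNKT17 cells 4 bins were called beside that of Cd247. Akap6 fell from 95.4 and 99.6 to 56.0 and 65.8 (-0.68 ± 0.11, adjusted p = 0.00322), and its change was -0.57 and not called without Hivep3-/- iNKT17 replicate 1. One Akap6 intron site, printed above, fell from 2.79 and 3.02 to -1.52 and -0.55 on the log2 scale. Capzb rose from 142 and 162 to 223 and 242 (0.61 ± 0.07, adjusted p = 0.000669), and was at 0.51 without C57BL/6 replicate 1 and 0.55 without Hivep3-/- replicate 2, below the threshold. The Ms4a4b bin rose from 39.5 and 27.9 to 53.0 and 48.8, and its change was 0.36 without C57BL/6 iNKT17 replicate 2 and 0.56 without Hivep3-/- iNKT17 replicate 1, neither of them called. At Trim14, 4 regions were called higher although the bin changed by less than 1.5-fold.

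The fourth was a bin of 17 regions on the X chromosome that holds the long non-coding RNA gene Firre, 71.5 kb from the nearest coding start site, Olfr1324, and it was lower in all subsets. Its summed level was 209 to 360 in the 6 C57BL/6 and 94.5 to 184 in the 6 Hivep3-/- libraries, which did not overlap. The log2 changes were -1.01 ± 0.15 (adjusted p = 0.000826), -0.72 ± 0.15 (adjusted p = 0.00556) and -0.99 ± 0.15 (adjusted p = 0.00243) for iNKT1, iNKT2 and iNKT17. At 9 of the 17 regions every Hivep3-/- library was below every C57BL/6 library. The 4 regions of Xist, the gene of the RNA that silences one X chromosome in females, summed to 114 to 144 in C57BL/6 and 35.8 to 68.8 in Hivep3-/- libraries. The labels do not give the sex of the mice, and the study states that it used both sexes. The part of this difference in the Firre result, and in every other change with genotype given here, was not tested.

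Few bins of the gene lists were called between genotypes, where a gene is counted by the bin of its start site, so that the bins over the bodies of Zbtb16 and Cd247 are not among them. Of the 14 dense bins with iNKT2 genes, Il17rb was called lower in iNKT1 cells, and of the 12 with iNKT17 genes, Blk was called lower in iNKT1 cells. Of the 17 with iNKT1 genes, limma called 0 in any subset. At an unadjusted p under 0.05, iNKT1 cells had 2 of these higher and 2 lower, iNKT2 cells 2 higher and 6 lower, and iNKT17 cells 2 higher and 2 lower. Of the 28 with T lineage transcription factors 0 were called, while iNKT1 cells had 5 higher and 9 lower at an unadjusted p under 0.05, iNKT2 cells 9 and 6, and iNKT17 cells 6 and 5. By the same measure, bins of the iNKT2 list in iNKT1 cells were 2 higher and 9 lower of 14, those of the receptor and survival list were 5 higher and 0 lower of 13 in iNKT1 and 6 and 0 in iNKT17 cells, and those of the TCR list were 8 higher and 1 lower of 19 in iNKT17 cells. Bins of genes named by the study were 2 higher and 8 lower of 16 in iNKT1 and again in iNKT2 cells, with 0 called. The study found transcripts of some of these genes higher in Hivep3-/- cells and of others lower, so this tally cannot test its directions. No share of all dense bins at this unadjusted cutoff is given beside these counts, so their direction is not read as a trait of the lists. Median log2 changes of the 7 lists lay between -0.13 and 0.09, against -0.02 to -0.01 over all bins tested. Over all dense bins the median was 0.0 in iNKT1 and iNKT2 and 0.03 in iNKT17 cells. The bins of Runx3, Ikzf3, Irf4, Cd5, Cd2, Rasgrp1, Cd6, Ifngr1, Stat5a and Il21r each changed by less than 1.5-fold in every subset. Hdac7, named by the study, was at 415 and 382 in C57BL/6 and 341 and 324 in Hivep3-/- iNKT2 libraries, with 4 regions called lower, and Zfp683 with Cd52 at 1001 and 956 against 797 and 779.

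The change with genotype differed between subsets at some members. Against iNKT2, the change in iNKT1 cells differed at 521 of 22223 members tested (2.34%, beside 3.06% of all regions), against iNKT17 it differed at 201 of 22515 (0.893%, beside 1.42%), and between iNKT2 and iNKT17 it differed at 221 of 22125 (0.999%, beside 1.02%). Of dense bins, 37 (2.65%, beside 7.51% of all bins), 13 (0.933%, beside 3.96%) and 15 (1.08%, beside 3.39%) differed. Zbtb16 differed by -0.50 ± 0.06 between the changes in iNKT1 and iNKT2 (adjusted p = 0.000422), which is below the 1.5-fold used for a call, while the Cd247 bin did not pass in any of the 3.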

How the data were processed

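The 12 ATAC-seq libraries of sorted thymic iNKT subsets of both genotypes (2 per group) were analysed from the deposited table of 63309 regions of 500 bp. According to the study's methods and processing notes, the authors trimmed reads with Trimmomatic (0.39), mapped them to mm10 with the ENCODE pipeline, merged the peaks of all libraries, counted insertions and normalized them with voom, and the deposited values are log2 insertions per kilobase. Counts and depth of the libraries are unknown. The lowest log2 value of a library lay between -4.31 and -2.58.

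Regions were placed in 100 kb bins by their midpoint, in GRCm38 coordinates, and annotated with GENCODE M21 (promoter, within 1000 bp of a start site). Log2 values of all regions were fitted in limma 3.58.1 (R 4.3.3) with a mean for each of 6 groups and a mean-variance trend, and tests were limited to regions whose linear mean reached 5 in either compared group. Benjamini-Hochberg adjustment ran over all regions tested. Linear values were summed per bin, and log2 sums of the 7306 bins with 3 or more regions were fitted likewise. Calls required an adjusted p below 0.1 with a 3-fold change for regions or 1.5-fold for bins. The fits were tested on simulated data. Named bins are the 10 with the most regions, the 3 largest called changes in each direction and comparison, and up to 4 per gene list; named regions are the 2 largest called changes in each direction. Other bins and regions were named after their values were seen. One item is not reported here. Members and lists were chosen with earlier results of these data known. The same replicate number within a genotype is taken to mark one pool, since titles number mice. Deviations from the group means correlated between subsets of a genotype by 0.12 to 0.167. Between genotypes, where no source says what a number shares, they correlated by 0.0912 to 0.174. Alternatives covered the pseudocount, the filter, the bin start and size threshold, the summary per bin, the replicate block and leaving out each library.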

Additional observations from a re-analysis of the deposited data

Results flagged for a closer look

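Each value here is the log2 change with loss of Hivep3 in one subset minus that in another. Listed are only those named bins and regions at which the difference itself passed limma's test in the model of all libraries (adjusted p below 0.1, with the fold used for calls). Among all dense bins, 37, 13 and 15 passed in the 3 comparisons below, so the lists are not complete.

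Between iNKT1 and iNKT2 cells, loci that fell in iNKT2 but not to the same degree in iNKT1 had positive differences. These were the bins of Tmod1 (1.41, adjusted p = 0.000384), Akap6 (1.2, 0.000459), Hes1 (1.02, 0.000184), the Ccl5 and Ccl9 chemokine genes (0.78, 0.00118) and Nck2 (0.76, 0.00821). Negative differences came from bins that were lower in iNKT1 cells, namely Mtx2 (-0.93), Il17rb (-0.69) and Pxdc1 (-0.67). Another came from the Ms4a4b bin (-0.59), which rose in iNKT2 cells. The Fam50b bin (-1.61, at summed levels of 4.58 or less in these subsets) changed by -0.86 in iNKT1 and by 0.75 in iNKT2 cells. Single regions were at 5.58 near Fibcd1, 2.49 near BC004004, 2.31 in Rab11fip4 and -2.20 for the Cd247 site at 32.2 kb. The Fibcd1 region's change in iNKT1 cells (3.8) was no longer called without C57BL/6 replicate 1 (3.01) or without Hivep3-/- replicate 1 (4.0) or 2 (3.60).

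Between iNKT1 and iNKT17 cells, the differences were -1.17 at Mtx2, -1.08 at Blk, -1.06 at Pxdc1, -0.81 at Fam50b and -0.60 at Il17rb, and 1.05 at Tmod1, 0.70 at Akap6, 0.69 at the Ccl5 bin and 0.60 at Mtss1. The region near Lmo4 was at -2.71 (adjusted p = 0.00485).

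Between iNKT2 and iNKT17 cells, they were -1.04 at Nck2, -0.97 at Hes1, -0.65 at Trim14 and 0.80 at Fam50b. Regions were at -3.34 and -2.51 at the neighbouring sites near Zfp683, -1.94 near BC004004 and 2.10 in Nek7.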

How the results depend on the processing

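Of 59 named values, none changed direction under 520 alternatives. The call was kept in 477 and lost in 43, and a pseudocount of 5 accounted for 21 of these. The replicate block changed none of the 59 calls, and with it 19% of members were called between iNKT1 and iNKT17, 0.774%, 1.51% and 0.344% with genotype in the 3 subsets. Counts of calls depended on low values. A rule of 15 or more regions gave 15407 members.

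The shares of members called with genotype were 0.75% (iNKT1), 1.46% (iNKT2) and 0.315% (iNKT17). With a pseudocount of 1 they were 0.433%, 0.925% and 0.148%, with a pseudocount of 5 they were 0.0192%, 0.117% and 0.00492%, and with no filter they were 1.37% in iNKT1 and 0.614% in iNKT17. Leaving out one library gave 0.471% to 0.989%, 1.43% to 1.59% and 0.197% to 0.54%. In iNKT1 it was 0.471% without C57BL/6 replicate 1 and 0.486% without Hivep3-/- replicate 2. In iNKT17 it was 0.197% without C57BL/6 replicate 1 and 0.476% without replicate 2, and 0.54% without Hivep3-/- replicate 1. Between subsets, shares of 13.2% (iNKT1 and iNKT2), 19% (iNKT1 and iNKT17) and 14.3% (iNKT2 and iNKT17) were 3.56%, 8.1% and 5.02% with a pseudocount of 5, and 12.8% to 13.7%, 18.9% to 19.4% and 14.0% to 14.7% without one library.

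For whole bins, shares called with genotype of 1.43%, 1.65% and 0.359% became 3.01%, 4.88% and 1.36% with the mean of log2 values, and 0.143%, 0.646% and 0.0717% when 5 was added to each region. Without one library they were 1.15% to 1.65%, 1.65% to 1.72% and 0.43% to 0.502%. Between subsets, 12.3%, 21.2% and 14.8% became 28.3%, 41.0% and 32.1% with the mean of log2 values. For iNKT1 and iNKT2, adding 5 gave 7.17%. Without one library they were 11.7% to 13.3%, 21.2% to 22.0% and 14.4% to 15.3%. Shares of all bins under these settings are not given. The causes were not tested.

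The share of called members that were higher in Hivep3-/- iNKT1 cells was 70.5%, but 54.4% with no filter and 55.2% with a filter on the mean of all libraries. In iNKT2 cells it was 36.7%, but 48.4% for bins of 15 or more. In iNKT17 cells it was 79.7%, but 68.2% and 60.7% without Hivep3-/- replicate 1 or 2. Between iNKT2 and iNKT17 it was 46.8%, but 27.5% with a pseudocount of 5. For bins, the share higher was 25.0% in iNKT1 (46.7% with bins started at 50 kb), 30.4% in iNKT2 (44.1% with mean log2 values, 11.1% with 5 added, 45.8% with shifted bins) and 60% in iNKT17 (42.9% without Hivep3-/- replicate 2).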
